A study of Mus musculus with 5 samples.

Results

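MAP kinase cascade genes were described here by the Runx3-bound and H3K4me1-marked regions found around them in IL-2-activated CD8+ T cells (CD8-TC). Members were all protein-coding genes of the mouse annotation (GENCODE vM1 on mm9) named Mapk, Map2k, Map3k or Map4k followed only by a number. This gave 40 of 22350 protein-coding genes on the autosomes and X, of which 5 were Map4k, 15 Map3k, 7 Map2k and 13 Mapk genes. Map3k4 carried 2 gene identifiers at a single locus and was counted once.

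The cells were CD8+ T cells from spleens of wild-type ICR mice, taken by positive selection with anti-CD8 beads. They were stimulated through the T cell receptor with anti-CD3e and anti-CD28 for 2 days and then kept for 4 days in 100 u/ml IL-2. Chromatin immunoprecipitation with sequencing (ChIP-seq) used a polyclonal antibody to Runx3, a transcription factor of the RUNX family, a monoclonal antibody to H3K4me1, the histone mark typical of enhancers, and non-immune rabbit serum (NIS) as control. The labels listed 5 libraries, 2 for Runx3, 2 for NIS and 1 for H3K4me1, while the protocol text spoke of a pair of replicates for both antibodies. Each antibody had a single list of regions, 9135 Runx3-bound and 18992 H3K4me1-marked, called on joined reads, so there was no value per library and no comparison between replicates. Other cell states were not analysed here. The lists carry neither read counts nor peak heights, and the depth behind a region is unknown from them. A gene without a region is a gene where none was called at the depth of these libraries. Of the T cell marker genes 8 of 8 had an H3K4me1-marked region within 5 kb of the gene body, and so did 3 of 4 B cell markers, 1 of 4 myeloid markers (Itgam) and 1 of 2 NK cell markers (Klrb1c). The share of all protein-coding genes with such a region within 5 kb was not counted, so these marker counts have no background beside them. The part of other cell types in the regions described here was not tested.

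MAP kinase cascades pass signals from receptors at the cell surface to the nucleus through kinases that phosphorylate one another in series. A Map4k or another upstream activator acts on a Map3k, which acts on a Map2k, which phosphorylates a Mapk on a threonine and a tyrosine, and the Mapk then acts on transcription factors and further kinases. The ERK, JNK, p38 and ERK5 branches differ in the Map2k and Mapk they use, and in T cells these branches are switched on by the antigen receptor, by co-stimulation, by cytokines and by stress.

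The central sequence was printed for 1 intronic Runx3-bound region in each of the Map4k, Map3k and Map2k tiers. The lists give only the start and end of a region, so where Runx3 sits within it is unknown. Candidates were nearest to the start of a member, over 1 kb from any transcript start and touched no exon, and those of Map3k8, 1 of them with 3 motifs, were left aside. In each tier a candidate with most RUNX motifs was taken, the widest where several had as many. Each is the central 200 bp on the plus strand of mm9, and capitals mark RUNX motifs, searched on either strand as the letters TGTGGT with the third base T or C and the last base T or C. The Map4k4 sequence (chr1:39974794-39974993) lay in an intron 17.1 kb after the gene start and held 2 motifs, 1 on each strand.
Map4k4: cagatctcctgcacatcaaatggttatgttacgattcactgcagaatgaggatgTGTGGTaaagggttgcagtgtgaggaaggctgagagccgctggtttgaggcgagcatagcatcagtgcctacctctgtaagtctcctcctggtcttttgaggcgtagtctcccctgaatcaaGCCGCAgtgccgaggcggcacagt
The Map3k1 sequence (chr13:112568987-112569186) lay in an intron 30.1 kb after the start and held 1 motif, on the minus strand.
Map3k1: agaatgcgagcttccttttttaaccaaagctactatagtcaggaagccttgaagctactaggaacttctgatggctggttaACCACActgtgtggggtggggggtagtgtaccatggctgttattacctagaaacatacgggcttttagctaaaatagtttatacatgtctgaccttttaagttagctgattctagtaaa
The Map2k5 sequence (chr9:63123024-63123223) lay in an intron 102.5 kb after the start and held 2 motifs.
Map2k5: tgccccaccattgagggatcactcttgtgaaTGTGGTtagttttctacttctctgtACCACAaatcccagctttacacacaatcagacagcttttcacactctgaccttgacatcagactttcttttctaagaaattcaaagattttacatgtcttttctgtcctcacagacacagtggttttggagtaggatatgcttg
All 3 regions overlapped H3K4me1.

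Regions were counted in the gene body extended by 60 kb on each side, with an overlap of at least 1 bp. Runx3-bound regions were found around 28 of the 40 genes (70%, Wilson 95% interval 54.6 to 81.9%), where 51.2% of all protein-coding genes had one. H3K4me1-marked regions were found around 30 of 40 (75%, 59.8 to 85.8%), against 55.2% of all protein-coding genes. Long genes have wide windows, so each member was also set beside the other protein-coding genes between 20% shorter and 25% longer than it. Averaged over members, 56.5% of those genes had a Runx3-bound region and 61.0% an H3K4me1-marked one, which put the cascade genes 13.54 and 14.05 percentage points higher. At 60 kb both values of the genes of similar length lay inside the Wilson interval of the members, which covers counting error alone. For both lists the excess was larger with 5, 20 and 100 kb on each side. It was largest with 20 kb, at 19.7 points for Runx3 and 23.9 for H3K4me1. With the gene body alone it was 11.9 and 14.3 points. Intervals were not computed for these windows, so whether the comparison values lay inside them was not tested.

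The same 28 genes with a Runx3-bound region all had an H3K4me1-marked region as well. How often this holds over all protein-coding genes was not counted. Map3k11, the mixed-lineage kinase MLK3, and Mapk15, an atypical MAP kinase, had H3K4me1 without Runx3, and no member had Runx3 alone. The other 10 had neither, namely Map2k6, Map3k9, Map3k13, Map3k15, Mapk4, Mapk7, Mapk8, Mapk9, Mapk10 and Mapk13. Map3k15 is on chromosome X, where 15.0% of protein-coding genes had a Runx3-bound and 6.76% an H3K4me1-marked region, against 52.8% and 57.3% on the autosomes.

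The 40 windows held 72 distinct Runx3-bound and 150 distinct H3K4me1-marked regions. The neighbours Mapk11 and Mapk12 shared 2 Runx3-bound and 3 H3K4me1-marked regions, which were counted for each of them in values per gene. The mean was 1.85 ± 1.59 Runx3-bound regions per member (SD over 40 genes), against 1.31 for genes of similar length, and 3.83 ± 4.48 H3K4me1-marked regions against 2.67. Above the mean of their own genes of similar length stood 24 members for Runx3 and 20 for H3K4me1. The counts are skewed, so most genes lie below such a mean. Of genes of the length of Map3k2 34.2% had 2 or more Runx3-bound regions, where the mean was 1.32. Of genes of the length of Map3k1 36.4% had 3 or more H3K4me1-marked regions, where the mean was 2.78.

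**Figure D1:**
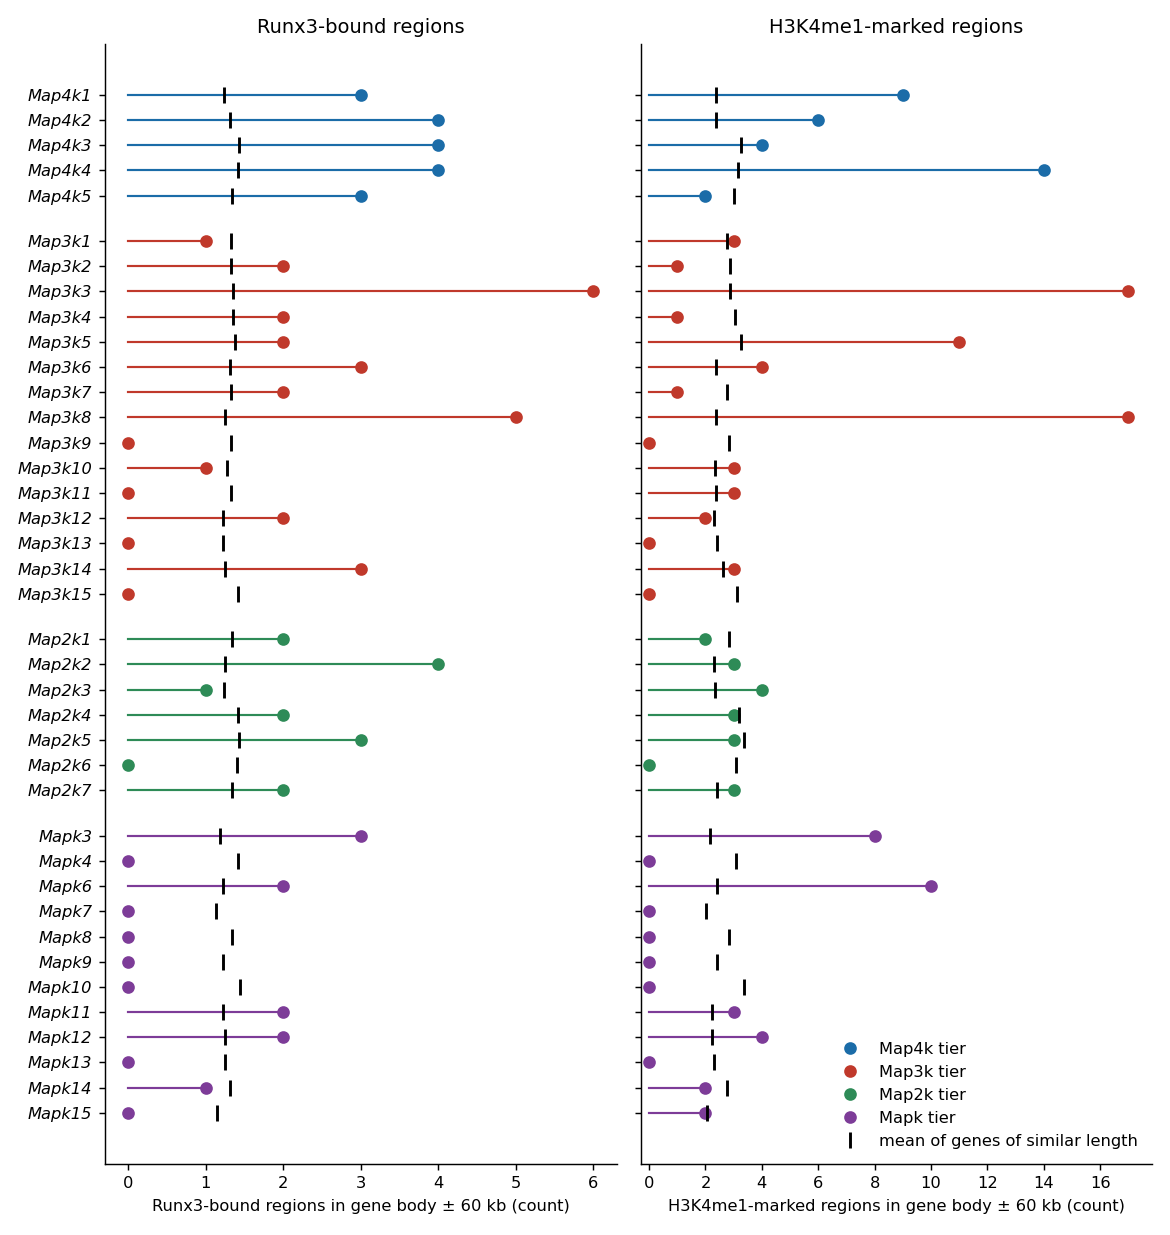
Number of Runx3-bound (left) and H3K4me1-marked (right) regions in the gene body ± 60 kb of each of 39 of the 40 genes, coloured by tier, with a black tick at the mean of protein-coding genes of similar length. The 5 Map4k genes had 3 or 4 Runx3-bound regions each, and the highest counts were 6 Runx3-bound regions at Map3k3 and 17 H3K4me1-marked regions at Map3k3 and at Map3k8.

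The tiers differed in how many genes had a region. For Runx3 these were 5 of 5 Map4k, 11 of 15 Map3k, 6 of 7 Map2k and 6 of 13 Mapk genes. For H3K4me1 they were 5 of 5, 12 of 15, 6 of 7 and 7 of 13. The Mapk tier, the last of the cascade, was the only one below its genes of similar length at 60 kb, with 46.2% against 55.1% for Runx3 and 53.8% against 59.3% for H3K4me1. That order depended on the size of the window: with 100 kb on each side 11 of 13 Mapk genes had a region of each list, and the tier stood 19.7 percentage points above genes of similar length for Runx3 and 17.5 for H3K4me1. With 20 kb on each side it was also above them, by 7.81 points for Runx3 and 10.2 for H3K4me1, and with 5 kb it was at -4.35 points for Runx3 and 5.39 for H3K4me1. At 60 kb the value of the genes of similar length lay inside the Wilson interval of the members in every tier. For the Map4k tier the interval could not have shown an excess. Even 5 of 5 genes has an interval down to 56.6%, below the 57.2% (Runx3) and 61.3% (H3K4me1) of genes of similar length. Intervals by tier were not computed for the other windows.

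**Figure D2:**
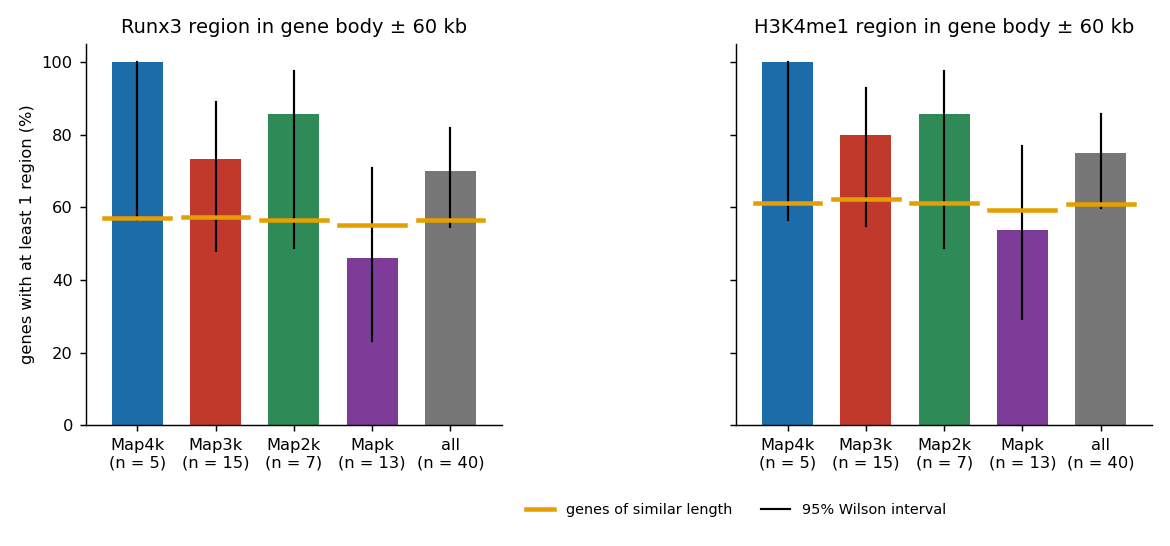
Percent of genes with at least 1 Runx3-bound (left) or H3K4me1-marked (right) region in the gene body ± 60 kb, by tier and over all members. Bars give the members, black lines the Wilson 95% interval and orange lines the genes of similar length. All 5 Map4k genes had a region of both lists and 6 (Runx3) or 7 (H3K4me1) of 13 Mapk genes did, and every orange line lies within the interval of its bar.

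In numbers of Runx3-bound regions per gene the Map4k tier was highest, with 3.6 ± 0.55 (SD, n = 5 genes) against 1.35 for genes of similar length. The Map3k genes had 1.93 ± 1.79 (n = 15) against 1.31, the Map2k genes 2.0 ± 1.29 (n = 7) against 1.34 and the Mapk genes 1.0 ± 1.22 (n = 13) against 1.27. The range was 3 to 4 in the Map4k tier and 0 to 3 in the Mapk tier, so these met only at 3. Genes are not replicates of a condition, and the order of tiers was not tested. The Map4k tier was also highest with the gene body alone, at 1.2 against 0.71 for Map2k, 0.33 for Map3k and 0.23 for Mapk genes. The size of its lead at 60 kb rests on regions some way from the genes. Within 20 kb of the gene body the Map4k mean was 1.4 and the Map2k mean 1.29. H3K4me1-marked regions numbered 7.0 ± 4.69 per Map4k gene against 2.82, 4.4 ± 5.78 per Map3k gene against 2.69, 2.57 ± 1.27 per Map2k gene against 2.79 and 2.62 ± 3.33 per Mapk gene against 2.52.

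The Map4k genes encode kinases of the germinal centre kinase group, which act far upstream, mostly towards JNK. Map4k4 (chr1:39957758-40083155) had 4 Runx3-bound and 14 H3K4me1-marked regions. Of 1061 genes of similar length 13.0% had at least as many Runx3-bound and 5.28% at least as many H3K4me1-marked regions. A pair of the Map4k4 Runx3-bound regions lay 58.4 and 57.5 kb before the start and the others in its introns at 1.89 and 17.1 kb, and 3 of the 4 overlapped H3K4me1. Map4k2, the germinal centre kinase itself (chr19:6341135-6355615), had 4 and 6 regions, but none of its Runx3-bound regions was nearest to its own start, and both downstream ones were nearest to Rasgrp2, whose product is an exchange factor for Rap proteins. Map4k3 (chr17:80979852-81127433), whose product GLK acts in T cell receptor signalling, had 4 of each. Map4k1, which encodes HPK1, a kinase that restrains T cell receptor signalling, had 3 Runx3-bound regions, all overlapping H3K4me1, and 9 H3K4me1-marked ones. Among the Map4k regions nearest to the start of a member, its Runx3-bound region at chr7:29808453-29809201 was widest with 749 bp. It lay 41.8 kb from the Map4k1 start in the neighbour Ryr1 and touched a coding exon there. The widest H3K4me1-marked region of the same kind, 3314 bp, was close by at chr7:29810764-29814077. Map4k5 had 3 Runx3-bound regions, all in its introns, and 2 H3K4me1-marked ones. The gene start of Atl1 was nearest to all 3, though only slightly. For example, 1 lay 29.396 kb from the Atl1 start and 29.491 kb from the Map4k5 gene start.

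Among the Map3k genes, which gather signals from many receptors, the counts were most uneven. Map3k3 (chr11:105945927-106016760), which encodes MEKK3, an activator of the ERK5 and other branches, had 6 Runx3-bound and 17 H3K4me1-marked regions. Of genes of its length 3.03% had at least as many Runx3-bound and 1.01% at least as many H3K4me1-marked regions. Only 1 of the 6 lay in Map3k3, the others were in or beside Dcaf7, Taco1, Limd2 and Strada, and no Runx3-bound region in the window had Map3k3 as its nearest start.

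Map3k8 encodes Tpl2, a kinase that drives ERK activation in immune cells. It had 5 Runx3-bound and 17 H3K4me1-marked regions around a gene body of 21.7 kb, and the marked regions covered 43.0 kb, or 30.4%, of the window. Of 2562 genes of similar length 0.234% had at least as many H3K4me1-marked regions and 4.33% at least as many Runx3-bound ones. In contrast to Map3k3, all 5 Runx3-bound regions had Map3k8 as their nearest gene start. One lay 0.501 kb before the start without H3K4me1, and the other 4 lay 49.8 to 75.4 kb after it, downstream of the gene, all overlapping H3K4me1. These included the widest Runx3-bound region of all members, 1881 bp with 8 RUNX motifs, and the widest H3K4me1-marked region near the gene measured 4832 bp.

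Map3k6, which encodes the stress kinase ASK2, had 3 Runx3-bound and 4 H3K4me1-marked regions. The remaining Map3k genes had 0 to 3 Runx3-bound regions. Map3k5, encoding ASK1, which responds to oxidative stress, had 2 Runx3-bound regions, both in introns and marked, and 11 H3K4me1-marked regions. Map3k14, encoding NIK of the non-canonical NF-kB pathway, had 3 of each list, and none of its Runx3-bound regions overlapped H3K4me1.

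Of the Map2k genes, whose products phosphorylate the MAP kinases, 5 of 7 had a Runx3-bound region within the gene body, where 18.1% of all protein-coding genes did, and the share was 43.4 percentage points above that of genes of similar length. In the other tiers this excess was 30.9 points for Map4k, 0.17 for Map3k and 1.26 for Mapk genes. Map2k2, encoding MEK2 of the ERK branch (chr10:80568660-80587442), had 4 Runx3-bound and 3 H3K4me1-marked regions, and the other MEK gene, Map2k1, had 2 of each. Map2k5, encoding the activator of ERK5 (chr9:63011576-63225659), had 3 of each, and its intronic region at chr9:63122698-63123550 was the widest Runx3-bound region of the tier, 853 bp with 5 RUNX motifs along its length. Map2k4, a JNK activator (chr11:65501745-65601799), had 2 Runx3-bound regions, 1 of them 6.68 kb before the start and marked. The other, inside the gene and unmarked, overlapped the microRNA gene Mir744. Map2k3, a p38 activator, had an H3K4me1-marked region of 2032 bp in its own intron at chr11:60748230-60750261, the widest of those in the tier that were nearest to the start of a member. Map2k6, the other p38 activator, had no region of either list, and the nearest Runx3-bound region was 371 kb from its body.

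Among the Mapk genes, Mapk3 (chr7:133903115-133909333) encodes the kinase ERK1. It had 3 Runx3-bound and 8 H3K4me1-marked regions, but none of its Runx3-bound regions was nearest to its start: they lay in Coro1a and in or beside Ypel3. Mapk6, encoding the atypical kinase ERK3 (chr9:75216869-75257812), had 2 Runx3-bound and 10 H3K4me1-marked regions, the widest marked one measuring 2941 bp in its intron at chr9:75248330-75251270. The 3 genes of the c-Jun N-terminal kinases, Mapk8, Mapk9 and Mapk10, had none of either list, and their nearest Runx3-bound regions were 278, 85.9 and 129 kb from the gene bodies. Mapk8 and Mapk9 are the JNK genes used in T cells and Mapk10 is known mainly from the nervous system. Of the p38 genes Mapk11, Mapk12 and Mapk14 had a region of both lists and Mapk13 had none. Among genes as long as the JNK genes 55.2% had a Runx3-bound and 59.1% an H3K4me1-marked region. For the p38 genes these shares were 56.1% and 60.1%. With so few genes a difference between the branches was not tested. The nearest Runx3-bound region to Mapk13, 76.9 kb away, was the one inside its neighbour Mapk14. Grouping the Mapk genes by branch in this way was done after their values were seen.

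**Figure D3:**
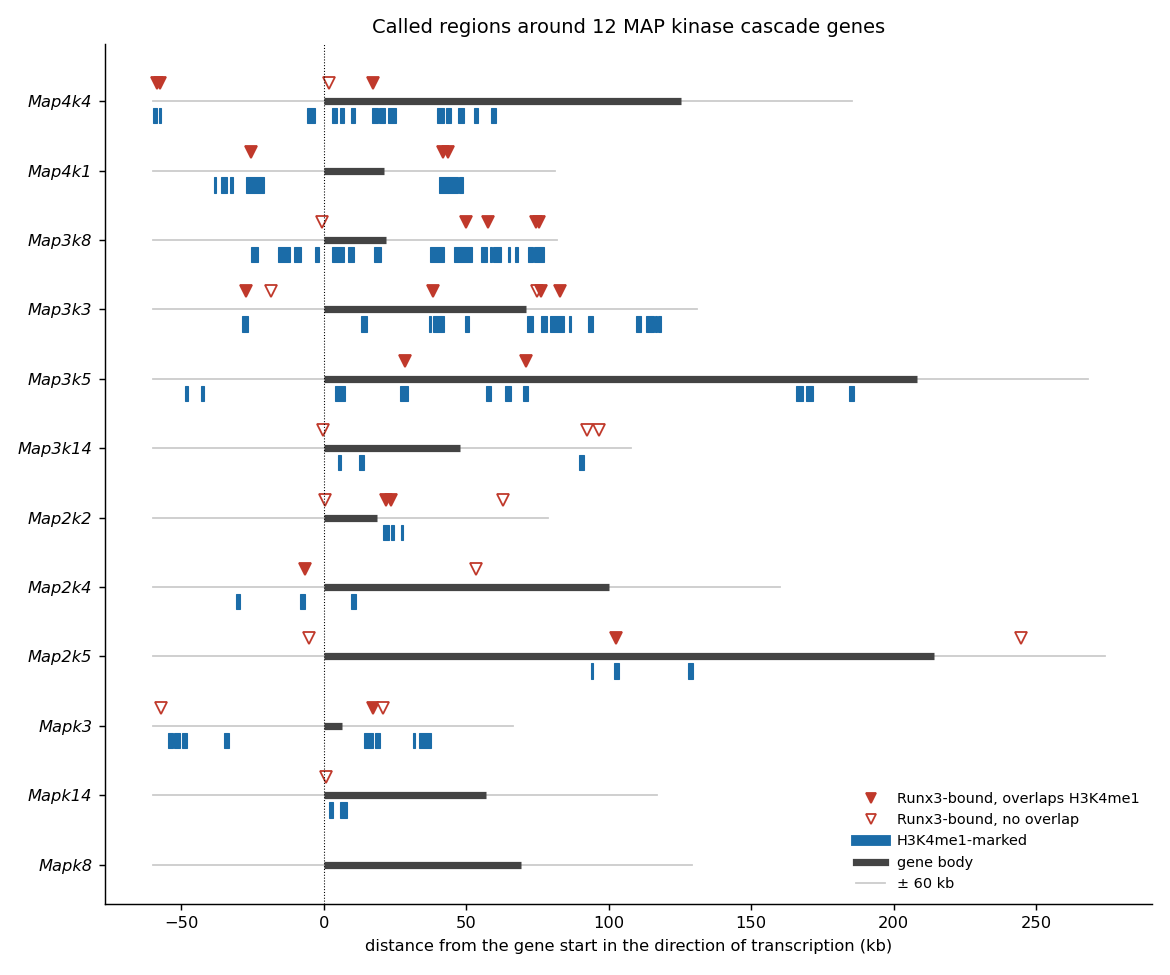
Called regions around 12 of the genes, with distance from the gene start in kb along the direction of transcription (positive into the gene). Dark bars are gene bodies, thin lines the 60 kb on each side, blue boxes H3K4me1-marked regions drawn to scale, and triangles the centres of Runx3-bound regions, filled where they overlap H3K4me1. At Map3k8 an open triangle sits at the start and 4 filled ones lie 49.8 to 75.4 kb after it, and Mapk8 has no region.

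A Runx3-bound region centred within 1 kb of an annotated transcript start was found at 8 of the 40 genes, 4 Map3k, 2 Map2k, 2 Mapk and 0 Map4k genes, where 10.4% of all protein-coding genes had one. They included Map3k2 (0.748 kb before the gene start), Map3k7 (0.416 kb before), Map3k8 (0.501 kb before), Map3k14 (0.243 kb before), Map2k2 (0.435 kb after), Map2k7 (0.004 kb before) and Mapk14 (0.893 kb after). These encode kinases of several branches, with Map3k7 the kinase TAK1 of cytokine and antigen receptor signalling, Map2k7 an activator of JNK, and Mapk14 the main p38 kinase. None of the 8 regions overlapped H3K4me1 (Wilson upper limit 32.4%), where 19.97% of all Runx3-bound regions within 1 kb of a start did. A RUNX motif stood in the central 200 bp of 6 of the 8, against 78.8% of the whole list. An H3K4me1-marked region was centred within 1 kb of a start at 2 members, Map3k8 and Map2k7, against 5.83% of all genes.

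The central 200 bp at the starts of Map3k7 (chr4:32050556-32050755, just before the gene) and Mapk14 (chr17:28829080-28829279, in its first kb) are shown as the counterpart of the distal sequences above, with RUNX motifs again in capitals and on the plus strand of mm9. These were chosen after their values were seen.
Map3k7: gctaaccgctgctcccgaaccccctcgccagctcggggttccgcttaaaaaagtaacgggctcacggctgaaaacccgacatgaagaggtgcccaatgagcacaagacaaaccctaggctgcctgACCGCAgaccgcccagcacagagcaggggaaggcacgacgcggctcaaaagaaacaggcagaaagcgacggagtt
Mapk14: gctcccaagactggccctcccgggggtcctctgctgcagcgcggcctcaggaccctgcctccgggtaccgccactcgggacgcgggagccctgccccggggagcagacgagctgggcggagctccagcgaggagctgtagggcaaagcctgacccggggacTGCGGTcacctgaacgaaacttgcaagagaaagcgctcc
Each held 1 RUNX motif.

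Counting the gene body alone, 15 members had a Runx3-bound and 18 an H3K4me1-marked region, where 18.1% and 21.1% of all protein-coding genes did. This was 11.9 and 14.3 percentage points above genes of similar length. Members were the nearest protein-coding gene start for 28 of the 72 Runx3-bound regions in their windows, spread over 16 of the 40 genes. Of all protein-coding genes 24.5% were nearest for at least 1, but that share covers the whole list at any distance, so the measures are unlike. By tier the 28 were 6 regions for Map4k, 13 for Map3k, 6 for Map2k and 3 for Mapk genes. For the other 44 regions another gene started closer.

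Measured from the gene start, the nearest Runx3-bound region lay at a median of 24.7 kb for the members and 72.7 kb for other protein-coding genes. The medians by tier were 14.4 kb for Map4k, 28.2 kb for Map3k, 6.40 kb for Map2k and 69.6 kb for Mapk genes. For H3K4me1 the medians were closer together, 14.3, 14.1, 20.6 and 16.8 kb, against 59.2 kb for other genes. These distances do not depend on the 60 kb limit.

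**Figure D4:**
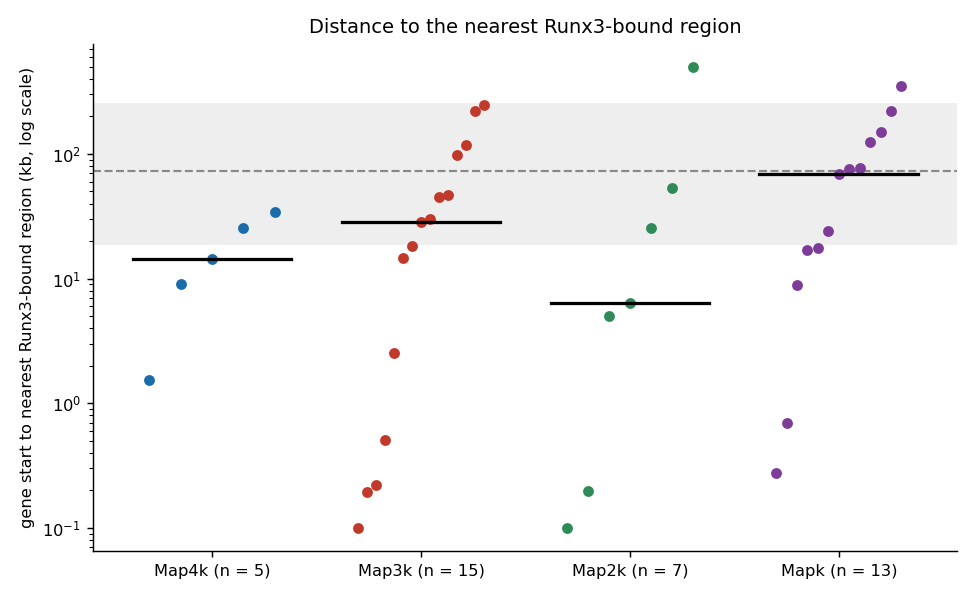
Distance from each gene start to the nearest edge of a Runx3-bound region (kb, log scale), with 1 point per gene, distances under 0.1 kb drawn at 0.1 kb, and black lines at tier medians. The dashed line and grey band give the median and quartiles of other protein-coding genes (72.7 kb, 18.9 to 252 kb). The Map2k median was lowest, at 6.40 kb, and the Mapk median, 69.6 kb, was close to that of other genes.

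The 72 Runx3-bound regions around the cascade genes were compared with the whole list. They had a median width of 539.5 bp against 521 bp. They overlapped H3K4me1 in 34 cases (47.2%, Wilson 36.1 to 58.6%), against 57.3% of the whole list. Of the 72, 28 lay within 1 kb of a transcript start of any gene (38.9%, 28.5 to 50.4%), against 26.3% of the whole list. The windows were drawn around genes and so hold gene starts by construction, whereas the whole list also has regions far from genes. Within these classes the overlap was closer to the whole list, with 29 of 44 distal regions (65.9% against 70.6%) and 5 of 28 at starts (17.86% against 19.97%).

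By position, 19 of the regions lay in or touched a member, 10 of them marked by H3K4me1. Counting a shared region once for each gene, 27 were upstream, 9 of them marked, and 28 downstream, 16 of them marked. The annotation put 25 regions between genes, 20 in introns, 15 over a coding exon, 10 over an untranslated or other non-coding exon of a coding gene and 2 over an exon of a non-coding gene. Of the 150 H3K4me1-marked regions 35 overlapped a Runx3-bound region (23.3%, 17.3 to 30.7%), against 29.2% of the whole list, and their median width was 1708.5 bp against 1592 bp.

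A RUNX motif stood in the central 200 bp of 55 of the 72 regions (76.4%, 65.4 to 84.7%), against 78.8% of the whole Runx3 list and 36.4% of H3K4me1-marked regions that overlapped no Runx3-bound region. At least 2 motifs were present in 34.7% and 37.0% of the whole list. ETS motifs, searched on either strand as the letters AGGAAG with the first base A or C and the last base G or A, were in 61.1% against 66.2% of the whole list, and AP-1 motifs, searched on either strand as TGACTCA with the middle base C or G, in 5 regions, or 6.94%, against 6.50%. ETS and AP-1 factors are among the transcription factors that MAP kinases act on. Neither share differed from the whole list by more than counting error, and a match of letters was not taken as a binding site.

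Other genes of the pathway were counted by the same windows, from a list chosen by role. Of 40 names 38 matched a gene, and 31 of these (81.6%) had a Runx3-bound and 28 (73.7%) an H3K4me1-marked region, against 57.3% and 61.9% of genes of similar length. Effector kinases, which MAP kinases phosphorylate, had one in 9 of 10 cases for Runx3, with a mean of 3.6 regions against 1.29. Mapkapk2 and Mapkapk3, kinases downstream of p38, had 8 Runx3-bound regions each, with 13 and 8 H3K4me1-marked ones, and Mknk2, which phosphorylates the translation factor eIF4E, had 8 and 17. They were named for having the most Runx3-bound regions of the 38 genes. Whether their own starts were the nearest to these regions was not counted, and only Mapkapk3 had one within 1 kb of a start. Ras genes and their exchange factors had Runx3-bound regions in 5 of 5 cases, among them Rasgrp1, which links the T cell receptor to Ras, with 3 Runx3-bound and 11 H3K4me1-marked regions. The Raf and scaffold kinases had them in 4 of 4, the MAP3K-type kinases of other names in 3 of 3 and the adaptors and scaffolds in 7 of 10. For H3K4me1 these groups had a region in 2 of 4, 2 of 3 and 8 of 10 cases. Araf, Braf, Taok2, Rps6ka2 and Rps6ka3 had Runx3-bound regions and no H3K4me1-marked one, and Araf and Rps6ka3 are on chromosome X. The share of all protein-coding genes with Runx3 alone was not counted, so this was not read as a difference from the members. Of the nuclear targets 3 of 6 had a Runx3-bound region, Elk3, Elk4 and Mef2d, and Elk1, Srf and Atf2 had none of either list. A Runx3-bound region within 1 kb of a start was found at 7 of the 38, against 10.4% of all protein-coding genes.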

How the data were processed

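ChIP-seq regions from IL-2-activated CD8-TC were taken as 2 lists in BED format. Per the labels and the methods, the authors aligned short reads to mm9 with ELAND, kept unique alignments and called peaks with MACS on joined reads of the repeats, with NIS as control. The deposited values are positions in bp, with no score, coverage or p-value, so the precision of single regions is unknown. The study states read totals for each antibody but not for each library, and the lists hold neither. No region ran past the end of its chromosome in the mm9 sequence.

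Regions were counted with Python 3.11.15 and NumPy 2.4.6 against GENCODE vM1 by an overlap of at least 1 bp with the gene body extended by 60 kb. Genes of similar length were at most 20% shorter or 25% longer than a member and were used as a description. Wilson intervals (95%) cover counting error over genes or regions that share neighbourhoods. No test was run, because neither list separates replicates. Counting was tested on simulated regions against direct counting.

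The members and lists were chosen with earlier results of these data known. Named one by one were the 3 members per tier with most Runx3-bound regions, members with a region within 1 kb of a start and, by name, members with 0 regions. Sequence was printed only off chromosome 18. The separate values of 1 member and 1 marker gene are not reported here; both stay in the counts. Also named were the widest regions per tier nearest to a member, and others chosen after their values were seen. Alternatives were other windows, merging, other comparison genes, other start distances and other motif windows.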

Additional observations from a re-analysis of the deposited data

How the results depend on the processing

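Of 93 recomputed values over 18 results, 77 stayed within 1.5 times the reported count, or within its interval or SD. Only the excess of all members over genes of similar length could change sign, and it did not. That of the Mapk tier alone, which was not among these results, did change sign. For Runx3 it was -8.95 points at 60 kb, 7.81 at 20 kb and 19.7 at 100 kb. The recomputed values that moved further were as follows. With the gene body alone, 15 members had a Runx3-bound and 18 an H3K4me1-marked region. The distinct Runx3-bound regions numbered 19, 29 and 39 with 0, 5 and 20 kb on each side, and the H3K4me1-marked ones 59, 69 and 89. The Map4k mean of Runx3-bound regions was 1.2, 1.2 and 1.4 at these extensions. The other tiers also fell with the gene body alone, though by less than their SD over genes, to 0.33 for Map3k, 0.71 for Map2k and 0.23 for Mapk genes, and the Map2k mean of H3K4me1-marked regions was 1.14 with the gene body alone. With regions near any start left out, 65.9% of Runx3-bound regions overlapped H3K4me1. A RUNX motif was present in 56.9% of the central 100 bp, 87.5% of the central 400 bp and 87.5% of whole regions. The excess over genes of similar length was smallest against genes of the same chromosome, 8.78 percentage points for Runx3 and 8.46 for H3K4me1, and largest with 20 kb on each side, 19.7 and 23.9. Without Map3k8, left out after its values were seen, the excess was 12.8 and 13.4 points, and without the member on X 15.3 and 15.9. No paired analysis was possible because the results come from no test and the lists carry no replicates. Depth at single regions is unknown from the lists, so genes with no region cannot be told apart from genes whose regions were too weak to be called.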
